A study of Mus musculus with 16 samples.

Results

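The mitochondrial ribosomal protein genes are the nuclear genes that encode the protein shell of the ribosome inside mitochondria. Their members were taken by name: every row of the deposited expression table whose symbol is Mrpl (large subunit) or Mrps (small subunit) followed by a digit, without the 4 rows named as pseudogenes (-ps) and with a mean normalised value of at least 10 over the 16 libraries. Of 80 rows with such a name, 76 genes met the rule, 47 named Mrpl and 29 named Mrps, out of 39017 genes in the table and 14814 genes that passed the same minimum and were tested. No member fell below the minimum: the lowest, Mrpl23, had a mean of 21.2, and the next, Mrps28, a mean of 85.2. The members lie on 17 chromosomes.

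The libraries are bulk RNA-seq of 2 brain regions, the prefrontal cortex (PFC) and the ventral midbrain (vMB), from 13-week-old male C57BL/6JRcc mice. Mutant animals were homozygous for the knock-in change H150Y in Cdh2, made with CRISPR/Cas9. Cdh2 encodes N-cadherin, a cell adhesion protein of synapses. WT animals carried the unchanged allele, and each of the 4 groups (PFC WT, PFC Mutant, vMB WT, vMB Mutant) had 4 libraries. All animals had been through behavioural tests and were perfused with saline and formaldehyde before dissection. The study made 2 founder lines. Which line each library comes from the sources used here do not say. PFC and vMB were dissected from the same hemisphere of each brain, and some PFC and vMB libraries carry the same code in their titles. These are PFC WT 1 and vMB WT 1 (B1), PFC WT 2 and vMB WT 2 (C2), PFC Mutant 2 and vMB Mutant 1 (A2), and PFC Mutant 3 and vMB Mutant 4 (D3). What the codes mean is not stated, so which libraries share an animal is not known. The main fits treated all libraries as independent. Their p-values measure the spread between these libraries, which may in part be technical. The samples were whole tissue, so fewer cells of a type and less RNA per cell cannot be told apart.

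The mitochondrial ribosome translates the few mRNAs made from mitochondrial DNA, which encode core subunits of the respiratory chain and of ATP synthase. Its RNA comes from mitochondrial DNA, while all of its proteins are translated in the cytosol and imported. Some of these proteins descend from bacterial ribosomal proteins, and others are found only in mitochondria. Neurons draw heavily on respiration, and inherited defects of several of these proteins cause disease of the brain, heart or liver in humans.

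Promoter windows were taken from RefSeq (GRCm38.p6) to show the regulatory sequence in front of the members. Each spanned 250 bases before to 50 bases after a gene's start. Symbols matched for 67 of the 76 members, which together had 73 windows. The stretches printed are the 120 bases that end just before the start, 5′ to 3′ on the gene's strand, with matches to the motifs named next in capitals. They are those of Mrpl20 and Mrpl27, the members called higher in Mutant vMB, and of Mrpl30 and Mrpl51. The latter 2 also had an adjusted p of 0.05 or less there. They were picked from such members by no rule, after their values were seen. The share of printed stretches with a match is therefore no estimate for the members.
Mrpl27 (chr11:94653671-94653790, plus strand): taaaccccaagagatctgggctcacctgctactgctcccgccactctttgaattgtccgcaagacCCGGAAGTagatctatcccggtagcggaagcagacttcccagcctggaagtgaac
Mrpl51 (chr6:125192080-125192199, plus strand): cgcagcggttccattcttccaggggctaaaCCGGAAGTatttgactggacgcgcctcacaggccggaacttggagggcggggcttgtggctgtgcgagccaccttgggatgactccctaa
Mrpl30 (chr1:37890357-37890476, plus strand): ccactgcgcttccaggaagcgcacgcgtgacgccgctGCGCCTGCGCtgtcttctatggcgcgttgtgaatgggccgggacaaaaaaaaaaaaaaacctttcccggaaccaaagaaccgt
Mrpl20 (chr4:155802758-155802877, plus strand): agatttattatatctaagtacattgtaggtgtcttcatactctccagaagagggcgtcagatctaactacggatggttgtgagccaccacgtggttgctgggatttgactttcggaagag
CCGGAAGT, a motif of the ETS type that GABP factors bind, stood in the windows of Mrpl27 and Mrpl51. The NRF1-type motif, GCGCA and GCGC with any base between them, stood in the window of Mrpl30, read on the opposite strand. The window of Mrpl20 held neither motif. Among the other members past that adjusted p, windows of Mrpl48 and Mrps22 held the ETS motif and those of Mrps9 and Mrps21 the NRF1-type motif. Those of Mrpl41 and Mrpl42 held neither.

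Both strands of the whole windows were searched, no motif contains another, and the matches are a description, not binding sites. CCGGAAGT was found in 16.4% of the 73 member windows and in 3.89% of all 32851 windows of the table. The NRF1-type motif was found in 16.4% of member windows and in 4.6% of all windows. AANATGGCG, a motif of the YY1 type, was found in 13.7% and 2.38%, TATAAA in 6.85% and 13.6%, and CCAAT in 41.1% and 37.4%. The share of G and C had a median of 58.3% in the member windows and of 52.7% in all windows. ETS matches stood in windows of 12 member genes, among them Mrpl48, Mrps22 and Mrps18c, whose values are given further on. The window of Mrpl20 held no YY1-type match either. Whether matches go with the genotype difference was not tested.

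About 7.74 M to 11.3 M reads per library were assigned to genes. This is a rough estimate that takes the most frequent low value of a library as a single read, and not all low values were whole steps of it. Cdh2 itself had normalised values from 923 to 1165 in PFC WT and from 522 to 780 in PFC Mutant. In vMB WT it ran from 1082 to 1148, whereas in vMB Mutant it was 1110 and 1043 in libraries 1 and 2 and 590 and 574 in libraries 3 and 4, so that 2 libraries labelled vMB Mutant sat at or near the WT level of the targeted gene. Dopamine neuron markers (8 genes) summed to 1291 to 2241 in the vMB libraries and to 164 to 261 in the PFC libraries, and 7 cortical projection neuron markers to 17730 to 23840 in PFC and 1135 to 4173 in vMB. Within vMB the dopamine neuron markers ran from 1608 to 2241 in WT and from 1291 to 1753 in Mutant, with overlap. The 5 tested there had a median log2 fold change of -0.354, with 0 above 0 and 0 called in limma. Other markers also differed by genotype. The 7 astrocyte markers summed to 30430 to 32710 in PFC WT and to 24470 to 28330 in PFC Mutant, without overlap and with 0 called in limma. The 6 hypothalamic neuron markers summed to 17.5 to 337 in vMB WT and to 234 to 1137 in vMB Mutant (2 of 4 tested genes called higher). In vMB Mutant 1 of 7 microglia markers was called higher, and 4 of 8 endothelial and 1 of 7 pericyte markers lower. Of all genes, 1.23% were called higher and 2.02% lower there. The 5 choroid plexus markers varied widely in vMB, from 338 to 9718 in WT and from 861 to 8230 in Mutant, with 0 called. None of these markers was at 0 in every library, and their part in the results that follow was not tested.

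The levels of the members were compared per kilobase of summed exon length (GENCODE annotation on GRCm38, 75 members with a length, Mrpl33 without one), averaged over the 16 libraries. The median member had 109 normalised reads per kilobase, and the quartiles were 72.5 and 172. Mrpl41, a large-subunit protein of mitochondria only, was highest at 480.5 per kilobase, followed by Mrps21 at 450 and by Mrps12, a protein of the decoding centre, at 315. Mrpl34 stood at 311 and Mrpl12, a protein of the stalk that recruits translation factors, at 279. At the low end, Mrps35 had 13.7, Mrpl1 28.6, Mrps30 29.1 and Mrpl15 29.7 per kilobase. Lengths sum all annotated exons and can exceed the transcript made, so a low rank per kilobase need not mean few reads. Mrps30 carries a small-subunit name but is a protein of the large subunit, and was counted there, as was Mrps18a.

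Mrpl23, a protein at the exit of the peptide tunnel, was lowest of all at 4.34 per kilobase. Its normalised values ran from 10.8 to 34.9 over the 16 libraries, while the row Mrpl23-ps1, named as its pseudogene and left out by the rule, had values from 142 to 256.5. The sources used here do not say how reads that fit both copies were counted, so the level and the change of Mrpl23 are uncertain. The order of the per-kilobase levels was close in both tissues: Spearman's rho between WT PFC and WT vMB was 0.979 over 75 genes, which are not independent replicates and share their lengths.

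Summed over the members, the normalised values made up a small share of each library that was higher in Mutant than in WT in both tissues. The share was 0.1761%, 0.1777%, 0.1696% and 0.1705% in the PFC WT libraries and 0.192%, 0.200%, 0.198% and 0.187% in the PFC Mutant libraries. In vMB it was 0.240%, 0.233%, 0.227% and 0.222% in WT and 0.252%, 0.275%, 0.259% and 0.273% in Mutant. The ranges of WT and Mutant did not overlap in either tissue, and every vMB library lay above every PFC library. The mean log2(value + 1) of the members ran from 7.60 to 7.70 in PFC WT, from 7.79 to 7.85 in PFC Mutant, from 7.865 to 8.004 in vMB WT and from 8.07 to 8.22 in vMB Mutant. Within vMB Mutant, libraries 1 and 2, those with Cdh2 near the WT level, had 8.07 and 8.22, the lowest and the highest of the group.

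**Figure D1:**
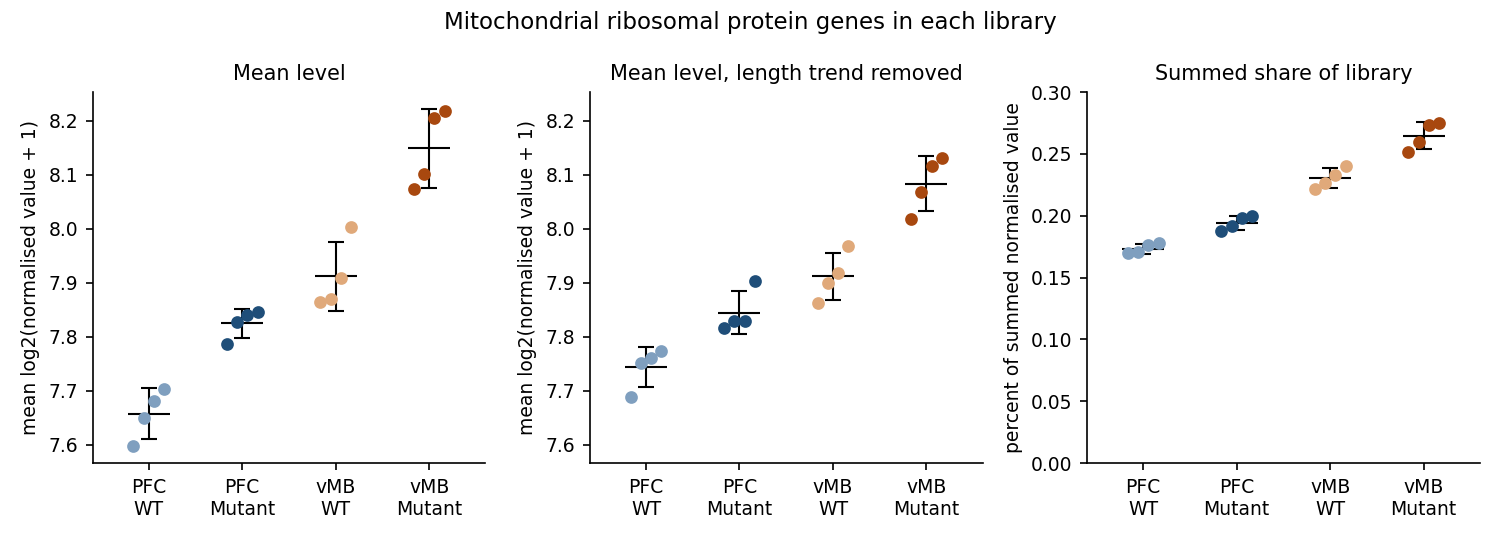
Level of the 76 genes in each library, with the mean log2(normalised value + 1) in the left and middle panels, the middle one after removal of each library's length trend (75 genes), and the summed share of the library in percent in the right panel. Points are libraries, horizontal bars group means and error bars SD (n = 4); Mutant and WT points do not overlap within a tissue in any panel, and vMB lies above PFC for each genotype.

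In the PFC, the members were higher in Mutant by a small amount, and none passed the test with its fold minimum. The test was limma on log2(value + 1) over all 16 libraries, with Benjamini-Hochberg adjustment over the 14814 genes tested, and a gene was called where the adjusted p was 0.05 or less and the fold 1.3 or more. Of the 76 members, 0 were called (0.0473% of all genes tested were called higher and 0.0945% lower). On unadjusted p (under 0.05), 27 members were higher and 0 lower, beside 8.03% and 9.07% of all genes. The log2 fold change was above 0 for 71 members, its median was 0.167, and that of all genes tested was -0.008. The Mutant libraries all lay above the WT libraries for 14 members and all below for 0, against 4.23% and 3.79% of all genes.

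Mrpl48, a protein of the central protuberance of the large subunit, was the one member that passed on adjusted p alone in the PFC, where 0.0743% of all genes did so with a higher and 0.115% with a lower value. Its normalised values were 433, 427, 468 and 485 in WT and 612, 619, 587 and 529 in Mutant. The ranges did not overlap, and the log2 fold change was 0.37 ± 0.07 (SE, n = 4 per group, limma adjusted p = 0.0477), just under the fold minimum. Mrpl48 shares exon sequence with Rab6a on the opposite strand, and the sources used here do not say whether counting used strand. It was called without PFC Mutant 4, and its adjusted p rose to as much as 0.136 without PFC Mutant 2.

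The members with the largest PFC differences did not pass. Mrps28 had 69.8, 59.9, 54.5 and 56.6 in WT and 92.0, 78.99, 89.3 and 68.4 in Mutant. One Mutant library fell just under the highest WT library, and the log2 fold change was 0.44 ± 0.12 (limma adjusted p = 0.0899). Mrpl52, a large-subunit protein of mitochondria only, had 138, 142, 129 and 145 in WT and 205, 214, 160 and 165 in Mutant, with no overlap and a log2 fold change of 0.41 ± 0.12 (limma adjusted p = 0.0922). It was called without PFC Mutant 3. Mrps23, Mrps18c and Mrpl33 followed at 0.40 ± 0.14, 0.39 ± 0.13 and 0.38 ± 0.15 (limma adjusted p = 0.148, 0.141 and 0.193). At the other end, Mrps33, Mrps22, Mrps31 and Mrpl35 had -0.14 ± 0.29, -0.07 ± 0.09, -0.06 ± 0.11 and -0.02 ± 0.09, all with adjusted p above 0.7.

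In the vMB, 2 members rose in Mutant, Mrpl20 and Mrpl27, and 0 fell. Among all genes, 1.23% were called higher and 2.02% lower, so the count called, 2 of 76, was near the background. At an unadjusted p under 0.05 in the same limma fit, 39 members were higher and 0 lower (9.99% and 10.9% of all genes). The log2 fold change was above 0 for 74 members, with a median of 0.226 beside -0.007 for all genes tested. For 29 members all Mutant libraries lay above all WT libraries, and for 0 below (7.82% and 7.56% of all genes).

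Mrpl20, a large-subunit protein with a bacterial counterpart that binds the large ribosomal RNA, had normalised values of 400, 364, 376 and 359 in vMB WT and 475, 568, 459 and 517.5 in vMB Mutant. The groups did not overlap, and the log2 fold change was 0.43 ± 0.09 (limma adjusted p = 0.00984). The PFC showed the same order, with 325, 333, 337 and 332 in WT and 464, 405, 445 and 353 in Mutant, a log2 fold change of 0.32 ± 0.09 and an adjusted p of 0.0872 in limma, so the gene was not called there.

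Mrpl27 is a large-subunit protein whose bacterial counterpart reaches towards the catalytic centre of the ribosome. Its values were 239, 248, 238 and 193 in vMB WT and 287, 288, 297 and 327 in vMB Mutant, again without overlap, and the log2 fold change was 0.39 ± 0.10 (limma adjusted p = 0.0283). In the PFC it had 186, 218, 171 and 183 in WT and 219, 208, 247.5 and 207 in Mutant, where the groups overlapped (0.22 ± 0.10, limma adjusted p = 0.269). Mrpl27 shares exon sequence with Eme1, a DNA repair gene, on the opposite strand.

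The calls of both genes were close to the fold and p limits and depended on single libraries. Without vMB Mutant 2, Mrpl20 had 0.37 (limma adjusted p = 0.0381) and no member was called. Mrpl27 lost its call without vMB WT 4 (0.31, limma adjusted p = 0.115), vMB Mutant 2 (0.41, 0.0526), Mutant 3 (0.39, 0.0521) or Mutant 4 (0.35, 0.112). Leaving out 1 vMB WT library gave 10, 4, 3 and 1 members called (libraries 1 to 4 in turn). Leaving out 1 vMB Mutant library gave 7, 0, 4 and 1. The shares of all genes called in these fits are not given here, so the counts show how the calls moved and are no result about the members. The median over the members was steadier, between 0.207 and 0.275 in these fits. With vMB Mutant 1 and 2, the libraries with Cdh2 near the WT level, left out together, the median was 0.245 and Mrpl30 was the one member called, while Mrpl20 stood at 0.38 (limma adjusted p = 0.0619) and Mrpl27 at 0.45 (0.0707).

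Without the fold minimum, 10 members passed on adjusted p in vMB, all higher, where 3.1% of all genes were higher and 3.35% lower. Besides Mrpl20, Mrpl27 and Mrpl48 these were Mrpl30, Mrpl41, Mrpl42, Mrpl51, Mrps9, Mrps21 and Mrps22, some of them named here because of their values. Mrpl48 had 632, 681, 603 and 611 in WT and 805, 715, 764 and 825 in Mutant, again without overlap (0.30 ± 0.07, limma adjusted p = 0.0216). Mrpl30, a large-subunit protein with a bacterial counterpart, had 350, 319, 341 and 286 in WT and 381, 440, 404 and 447 in Mutant, with no overlap (0.37 ± 0.08, limma adjusted p = 0.0113). Mrps9, a small-subunit protein with a bacterial counterpart, had little spread in vMB WT: 213, 212, 214 and 213 in WT and 260, 255, 244 and 261 in Mutant. Its log2 fold change of 0.26 ± 0.07 (limma adjusted p = 0.0315) was among the smaller of the 10. In PFC it had 205, 188, 190 and 185 in WT and 224, 228, 227 and 232 in Mutant, also without overlap. Mrpl41 reached 0.38 ± 0.09 (limma adjusted p = 0.0193), just under the fold minimum.

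The members with the 2 largest log2 fold changes in vMB, Mrpl47 and Mrps33, varied widely between libraries and were not called. Mrpl47, at the tunnel exit, had 126, 130, 112 and 177 in WT and 207, 188, 190 and 270 in Mutant. The groups did not overlap, and 0.65 ± 0.21 came with a limma adjusted p of 0.073. Mrpl47 shares exon sequence with Actl6a and Ndufb5 on the opposite strand. Mrps33, a small-subunit protein of mitochondria only, ran from 184 to 370 in WT and from 347 to 486 in Mutant, with overlap (0.60 ± 0.29, limma adjusted p = 0.261). Mrpl53 and Mrps14 both had 0.41 (± 0.14 and ± 0.13, limma adjusted p = 0.0816 and 0.0739). The 4 lowest members were Mrpl23 at -0.10 ± 0.34, Mrps2 at -0.01 ± 0.09, Mrpl38 at 0.003 ± 0.087 and Mrpl37 at 0.04 ± 0.10.

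**Figure D2:**
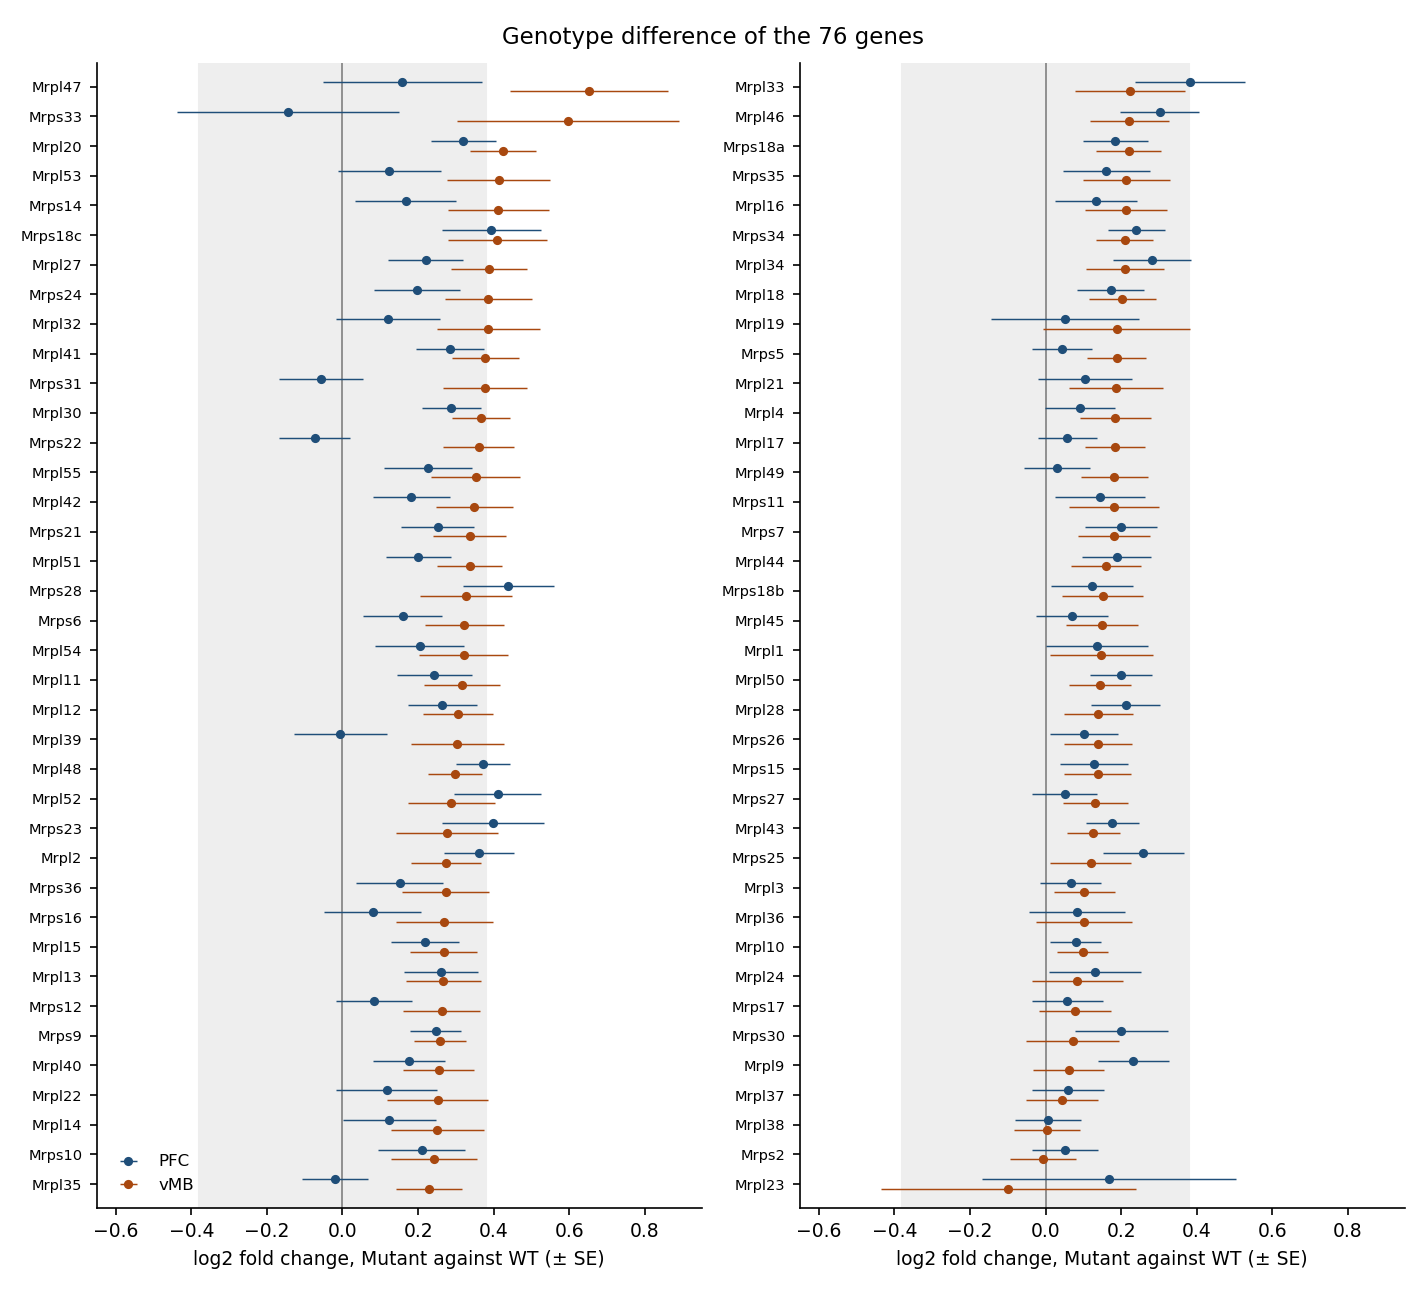
Log2 fold change of Mutant against WT for each of the 76 genes in PFC (blue) and vMB (orange), ordered by the vMB value, with bars for 1 SE and the grey band for folds under 1.3 in either direction. Most points lie to the right of 0 and inside the band; 69 genes are above 0 in both tissues.

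Side by side, 69 members had a higher Mutant mean in both tissues, 5 were lower in PFC and higher in vMB, 2 were higher in PFC and lower in vMB, and 0 were lower in both, where 32.2% of all genes tested were higher in both and 34.9% lower in both. The tissues share no library, but libraries of the 2 tissues with the same title code may come from the same animal. Agreement between tissues is therefore not known to be that of independent animals. For 8 members the Mutant libraries lay above all WT libraries of their tissue in both tissues, beside 1.84% of all genes: Mrpl2, Mrpl13, Mrpl15, Mrpl20, Mrpl30, Mrpl48, Mrps9 and Mrps34, of which several are named only for this. Across the members the log2 fold changes of PFC and vMB had a Spearman's rho of 0.316 (n = 76 genes).

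With the effect averaged over both tissues, 2 members were called higher and 0 lower (0.945% of all genes higher, 1.64% lower). Mrps18c, a small-subunit protein with a bacterial counterpart, had 122, 111, 123 and 159 in PFC WT and 150, 155, 190.5 and 180 in PFC Mutant. In vMB it had 128, 155, 130 and 105 in WT and 158, 173.5, 187 and 165 in Mutant. One PFC WT library lay among the Mutant libraries, and the vMB groups did not overlap. The averaged log2 fold change was 0.40 ± 0.09 (limma adjusted p = 0.00888). Mrps18c shares exon sequence with the gene model Gm43511 on the same strand. Mrps28 had 83.3, 95.7, 84.0 and 89.1 in vMB WT and 105, 113, 106 and 118 in vMB Mutant, and averaged 0.38 ± 0.09 (limma adjusted p = 0.00745). Their largest adjusted p over the fits that left out 1 library was 0.0221 and 0.0206 in limma, but their fold was near the minimum: Mrps18c fell under it without PFC WT 2, PFC Mutant 3 or vMB WT 4 (0.37, 0.37 and 0.35), and Mrps28 in 8 of those 16 fits (0.36 to 0.38: PFC WT 3 and 4, PFC Mutant 1 and 3, vMB WT 1 and 3, vMB Mutant 2 and 4).

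Without the fold minimum, 27 members passed on adjusted p in this average, all higher, where 6.34% of all genes were higher and 6.64% lower. The smallest were those of Mrpl48 at 0.33 ± 0.05, Mrpl20 at 0.37 ± 0.06 and Mrpl30 at 0.33 ± 0.05 (limma adjusted p = 0.00105, 0.00135 and 0.00142). All 76 members had an averaged log2 fold change above 0, with a median of 0.187. Of all genes tested, 47.8% were above 0, with a median of -0.01.

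**Figure D3:**
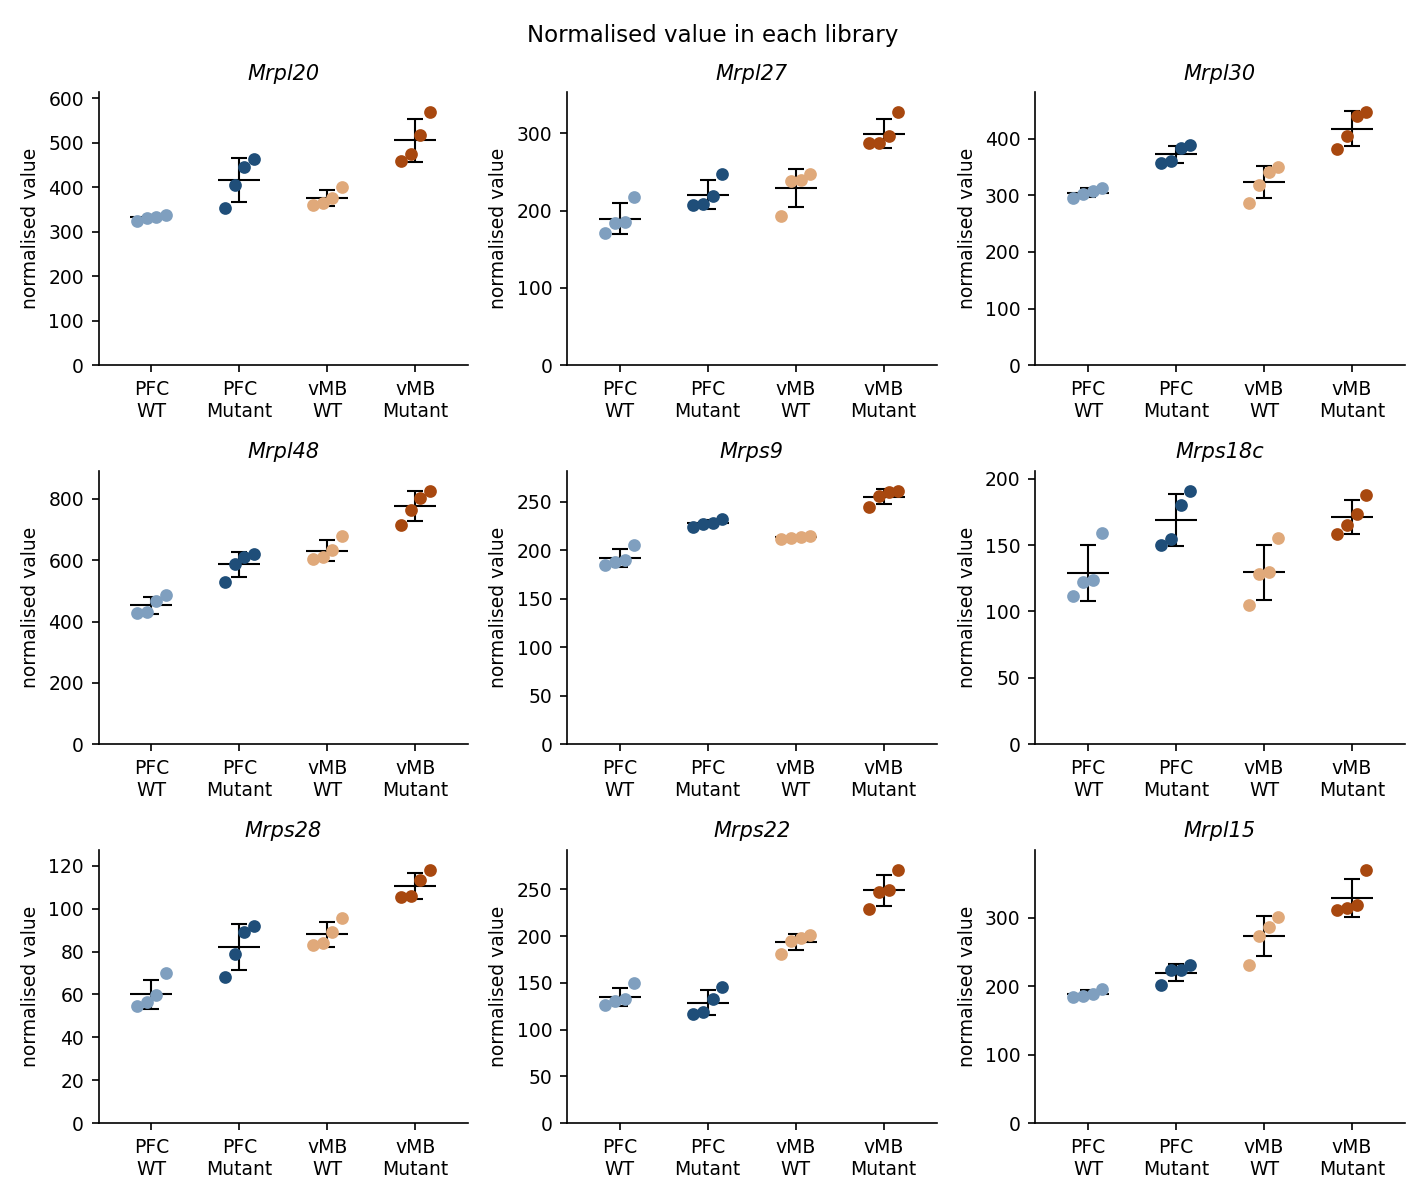
Normalised value in each library for 9 of the genes, with horizontal bars for group means and error bars for SD (n = 4). Mrpl20, Mrpl30, Mrpl48, Mrps9 and Mrpl15 have Mutant points above all WT points in both tissues, and Mrpl27, Mrps18c, Mrps28 and Mrps22 in vMB only.

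The difference of the genotype effect between tissues, vMB minus PFC, was called for 0 members and for 0 of all genes in limma. At an unadjusted p under 0.05, 2 members were higher and 0 lower, against 2.67% and 3.17% of all genes. The count of higher members, 2 of 76, was thus near the background. These were the small-subunit proteins Mrps22 and Mrps31, both found only in mitochondria. Mrps22 had 150, 127, 133 and 131 in PFC WT and 117, 119, 145 and 133 in PFC Mutant, where the groups overlapped, and 198, 201.5, 195 and 181 in vMB WT and 247, 249, 270.5 and 229.5 in vMB Mutant, where they did not. Its difference between tissues was 0.43 ± 0.13 (limma adjusted p = 0.728), and that of Mrps31 0.43 ± 0.16 (limma adjusted p = 0.782). The third smallest p belonged to Mrpl35 (0.25 ± 0.12, limma adjusted p = 0.85).

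The members are short transcripts, and length moved with genotype. Their summed exon length had a median of 2172 bases, and 58 of 75 were shorter than the median tested gene (4418 bases). Over all genes with a length, log2 fold change and log2 length had a Spearman's rho of -0.42 in PFC and -0.432 in vMB (14659 genes), so shorter genes were higher in Mutant at large. Within each library, the deviation of each gene from its own mean over the 16 libraries was regressed on log2 length. The slopes are thus relative to that mean. They were higher in WT than in Mutant, without overlap, in PFC and in vMB (exact permutation test, two-sided, n = 4 per group, p = 0.0286 each, the smallest that 70 splits can give). Within the members the rho was -0.265 and -0.264.

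After the length trend of each library had been removed, the medians of the members were lower, and still above those of all genes. The median was 0.097 in PFC (60 of 75 above 0, 0 called, as for all genes) beside 0.005 for all genes. It was 0.162 in vMB (66 of 75 above 0) beside 0.018, and 0.121 in the average of both tissues (69 of 75 above 0) beside 0.009. The mean level per library still separated the genotypes, from 7.69 to 7.77 in PFC WT against 7.82 to 7.90 in PFC Mutant, and from 7.86 to 7.97 in vMB WT against 8.02 to 8.13 in vMB Mutant. The vMB calls changed hands: Mrpl20 fell to 0.29 (limma adjusted p = 0.0816) and Mrpl27 to 0.19 (0.32), while Mrpl48 and Mrpl15 were called with 0.42 and 0.39 (0.0164 and 0.0402), where 0.478% of all genes were called higher and 0.43% lower. Mrpl15, a large-subunit protein with a bacterial counterpart, had 300, 274, 287 and 232 in vMB WT and 318.5, 369, 311 and 315 in vMB Mutant, and 0.27 ± 0.09 before removal (limma adjusted p = 0.0823). Mrps18c and Mrps28 fell to 0.235 and 0.197 in the average of both tissues (limma adjusted p = 0.217 each), where Mrpl48 was the one member called (0.44, limma adjusted p = 0.00153) and 0.3% of all genes were called higher and 0.471% lower. The removal left the opposite slope within the members, with a rho of 0.379 in PFC and 0.508 in vMB. The lengths are sums over all annotated exons, 8152 bases for Mrpl48 and 8487 for Mrpl15, and can exceed the transcript made in these tissues.

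**Figure D4:**
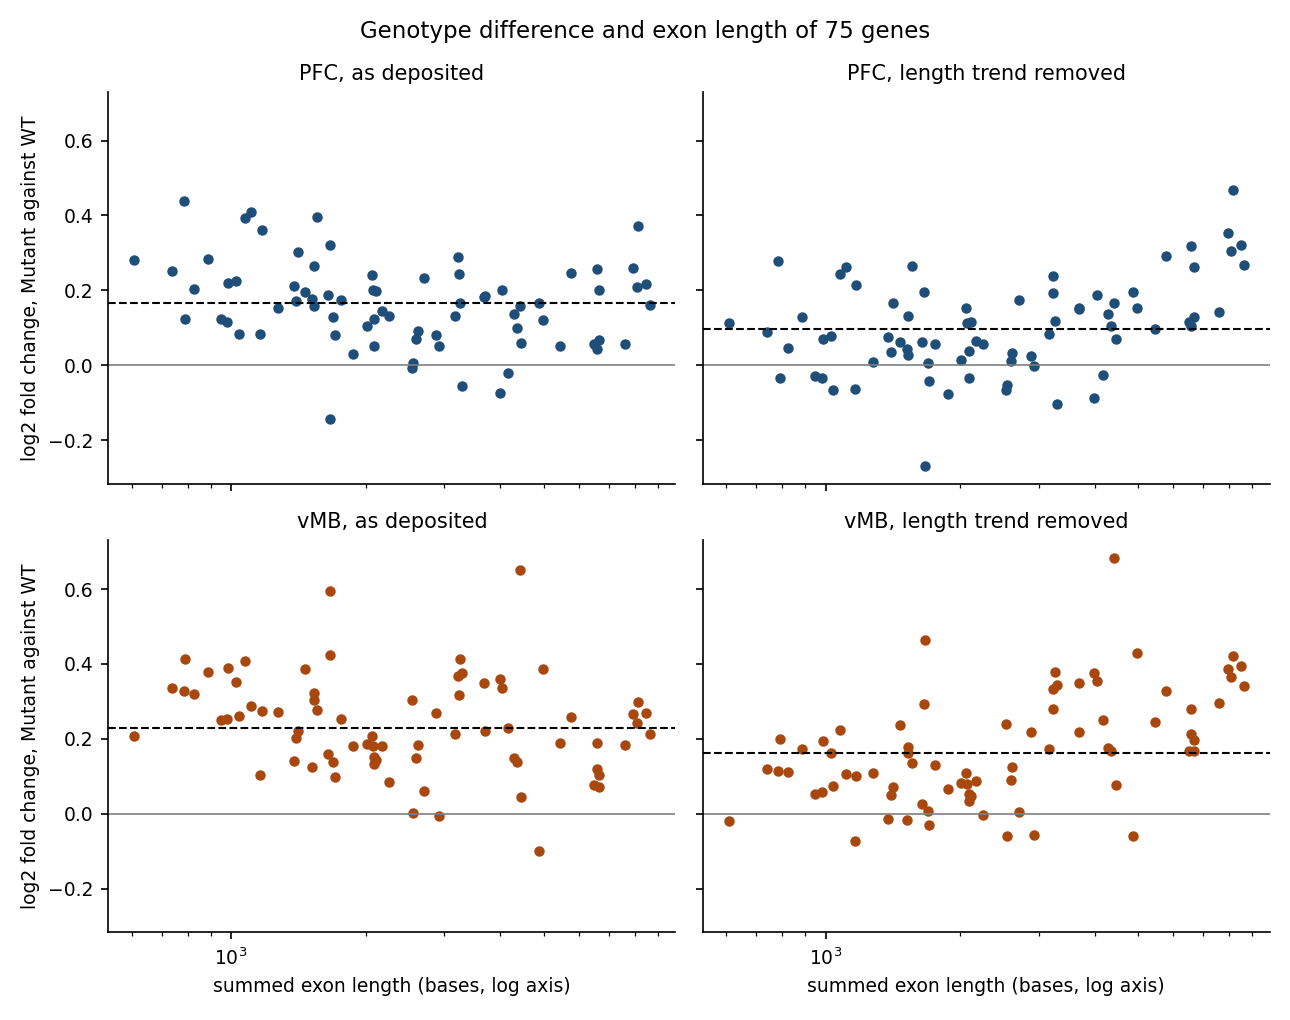
Log2 fold change of Mutant against WT against summed exon length in bases (log axis) for 75 genes, in PFC (upper) and vMB (lower), as deposited (left) and after removal of each library's length trend (right). Dashed lines are medians over the 75 genes: that of PFC falls from 0.167 to 0.097 and that of vMB falls to 0.162, and short genes drop most.

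Split by subunit, the medians of the genotype difference were close to each other. The 49 large-subunit members had a median of 0.176 in PFC and 0.222 in vMB, with 47 and 48 above 0 and 0 and 2 called. The 26 small-subunit members had 0.152 and 0.25, with 23 and 25 above 0 and 0 called in either tissue. At an unadjusted p under 0.05 in limma, 7 and 14 passed, all higher, beside 8.03% and 9.99% of all genes higher. Mrps36, named for the small subunit but known as part of the 2-oxoglutarate dehydrogenase complex of the citric acid cycle, had 0.15 ± 0.12 in PFC and 0.27 ± 0.12 in vMB (limma adjusted p = 0.541 and 0.173).

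Proteins with a bacterial counterpart and those found only in mitochondria gave medians of 0.158 and 0.184 in PFC and of 0.212 and 0.222 in vMB within the large subunit (29 and 19 genes), and of 0.163 and 0.112, and 0.26 and 0.212, within the small subunit (16 and 10 genes). By place in the large subunit, the 3 stalk genes had medians of 0.243 and 0.305, the 8 tunnel-exit genes 0.124 and 0.171, and the 6 genes of the central protuberance 0.197 and 0.238, in PFC and vMB respectively. Among the stalk genes, Mrpl12 had 0.26 ± 0.09 in PFC and 0.31 ± 0.09 in vMB and Mrpl11 0.24 ± 0.10 and 0.32 ± 0.10 (limma adjusted p from 0.0569 to 0.225), while Mrpl10 had 0.08 ± 0.07 and 0.10 ± 0.07 (limma adjusted p = 0.595 and 0.446). Differences between these groups were not tested.

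Between tissues, 23 of 76 members were called higher in WT vMB than in WT PFC and 0 lower (22% and 21.6% of all genes), and 11 of 75 were called higher after the length trend had been removed. The median log2 fold change was 0.237 beside 0.016 for all genes, 70 of 76 members were above 0, and the vMB libraries all lay above the PFC libraries for 35 members and below for 0 (25.4% and 24.3% of all genes). Without the fold minimum 39 were higher and 0 lower (27.9% and 26.8% of all genes), and at an unadjusted p under 0.05 43 and 0 (30.5% and 29.1%). The tissues differed in make-up. Oligodendrocyte markers (7 genes) summed to 136100 to 162900 in WT vMB and 23170 to 67710 in WT PFC, and all 7 were called higher in WT vMB. The part of make-up in the members' difference was not tested.

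Mrpl46, of the central protuberance, differed most: 119, 159, 130 and 142 in WT PFC against 223, 189.5, 227 and 221 in WT vMB, a log2 fold change of 0.65 ± 0.11 (limma adjusted p = 4.79e-05). The gene shares exon sequence with Mrps11 on the opposite strand, itself a member and higher by 0.41 ± 0.12 (limma adjusted p = 0.00755). Mrpl34 followed with 134, 147, 131 and 131 against 240, 200, 189 and 211 (0.62 ± 0.10, limma adjusted p = 5.54e-05). Mrpl17, at the tunnel exit, had 218, 211, 189 and 188 against 312, 296, 303 and 276.5 (0.56 ± 0.08, limma adjusted p = 9.31e-06). None of these genes overlapped between tissues.

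Mrpl42, Mrpl15, Mrps22, Mrpl18, Mrpl48 and Mrpl43 were higher by 0.55, 0.525, 0.52, 0.51, 0.48 and 0.40 (limma adjusted p from 2.07e-05 to 0.000185). Of the 6 genes of the central protuberance 4 were called higher, with a median of 0.47 over the 6, and of the 49 large-subunit and 26 small-subunit genes 15 and 7 were. The lowest members were Mrpl23 (-0.22 ± 0.34), Mrps18b (-0.21 ± 0.11), Mrps26 (-0.14 ± 0.09) and Mrps17 (-0.08 ± 0.09), none of which passed (limma adjusted p from 0.11 to 0.601). With the length trend removed, 11 of 75 members (14.7%) were called higher and 0 lower, beside 20.7% and 22% of all genes, so the share called higher was then below that of all genes. The median was 0.164 beside -0.011 for all genes, with 61 of 75 above 0.

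The genes around the mitochondrial ribosome were read from lists of known function. The 7 mitoribosomal proteins with other names had medians of 0.098 in PFC and 0.257 in vMB, all 7 above 0. Chchd1, a small-subunit protein, had 199, 197, 177 and 170 in vMB WT and 250, 282, 252 and 254 in vMB Mutant and was called higher (0.48 ± 0.09, limma adjusted p = 0.00719), though not after removal of the length trend (0.28, 0.0923). In the PFC it had 0.35 ± 0.09 (limma adjusted p = 0.0826). Aurkaip1, another small-subunit protein, had 0.33 ± 0.07 in vMB, under the fold minimum (limma adjusted p = 0.0147).

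Of the factors that work with this ribosome, the 14 mitochondrial translation factors had medians of 0.023 in PFC and -0.042 in vMB, with 0 called in limma and unadjusted p under 0.05 for 1 (Gfm2, lower in PFC) and 0. The 24 genes of mitoribosome assembly and rRNA modification had medians of 0.06 in PFC (15 above 0) and 0.098 in vMB (21 above 0), and of 0.005 and 0.121 with the length trend removed. Of these 0 were called in limma, while on unadjusted p (under 0.05) none passed in PFC, and in vMB 4 genes were higher and 2 lower. Of all genes, 8.03% were higher and 9.07% lower in PFC on that p, and 9.99% and 10.9% in vMB. The 20 genes of mitochondrial aminoacyl-tRNA synthesis had 0.005 and -0.027, with 0 called in either tissue. At an unadjusted p under 0.05 in limma, 1 was higher and 0 lower in PFC, and 4 were higher and 2 lower in vMB. In the average of tissues, Lars2, the mitochondrial leucyl-tRNA synthetase, was called higher (0.69 ± 0.14, limma adjusted p = 0.00443). Its values were spread widely, from 2469 to 3940 in PFC WT and from 4059 to 8506 in PFC Mutant.

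Among 13 genes of mitochondrial DNA maintenance and transcription (medians 0.044 and 0.142), Ssbp1, which binds single-stranded mitochondrial DNA, had 132, 121, 144 and 135 in vMB WT and 174, 189, 168 and 188 in vMB Mutant and was called higher (0.43 ± 0.10, limma adjusted p = 0.0141), also with the length trend removed (0.56, 0.0164). Trmt10c, a subunit of the mitochondrial RNase P, was called in vMB too (0.46 ± 0.13, limma adjusted p = 0.0449) but had 0.001 ± 0.130 in PFC. Of 10 regulators of mitochondrial gene programmes 0 were called in either tissue. At an unadjusted p under 0.05 in limma, 1 was higher and 2 lower in PFC (8.03% and 9.07% of all genes). In vMB 0 were higher and 1 lower (9.99% and 10.9% of all genes).

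The products of mitochondrial DNA had the opposite sign between tissues. The 13 mRNAs of mitochondrial DNA, those that this ribosome translates, were all lower in WT vMB than in WT PFC, with a median of -0.392 and 8 of 13 called lower and 0 higher (21.6% and 22% of all genes). By genotype their medians were 0.116 in PFC and 0.206 in vMB, and mt-Nd3, a subunit of complex I, was called higher in vMB (0.42 ± 0.12, limma adjusted p = 0.0496). With the length trend removed these medians were -0.038 and 0.005 and that between tissues -0.571.

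The ribosomal proteins of the cytosol had larger median differences by genotype than those of mitochondria. Their 79 genes (Rpl or Rps and a digit) had medians of 0.328 in PFC, with 2 called higher (0.0473% of all genes), and of 0.365 in vMB, with 30 called higher (1.23% of all genes). After removal of the length trend the medians were 0.221 and 0.249, with 0 and 9 called (0 and 133 of all 14659 genes, in both directions). Between WT tissues their median was 0.081, with 7 called higher and 5 lower (22% and 21.6% of all genes), below the 0.237 of the members. The difference between the 2 sets of genes was not tested.

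**Figure D5:**
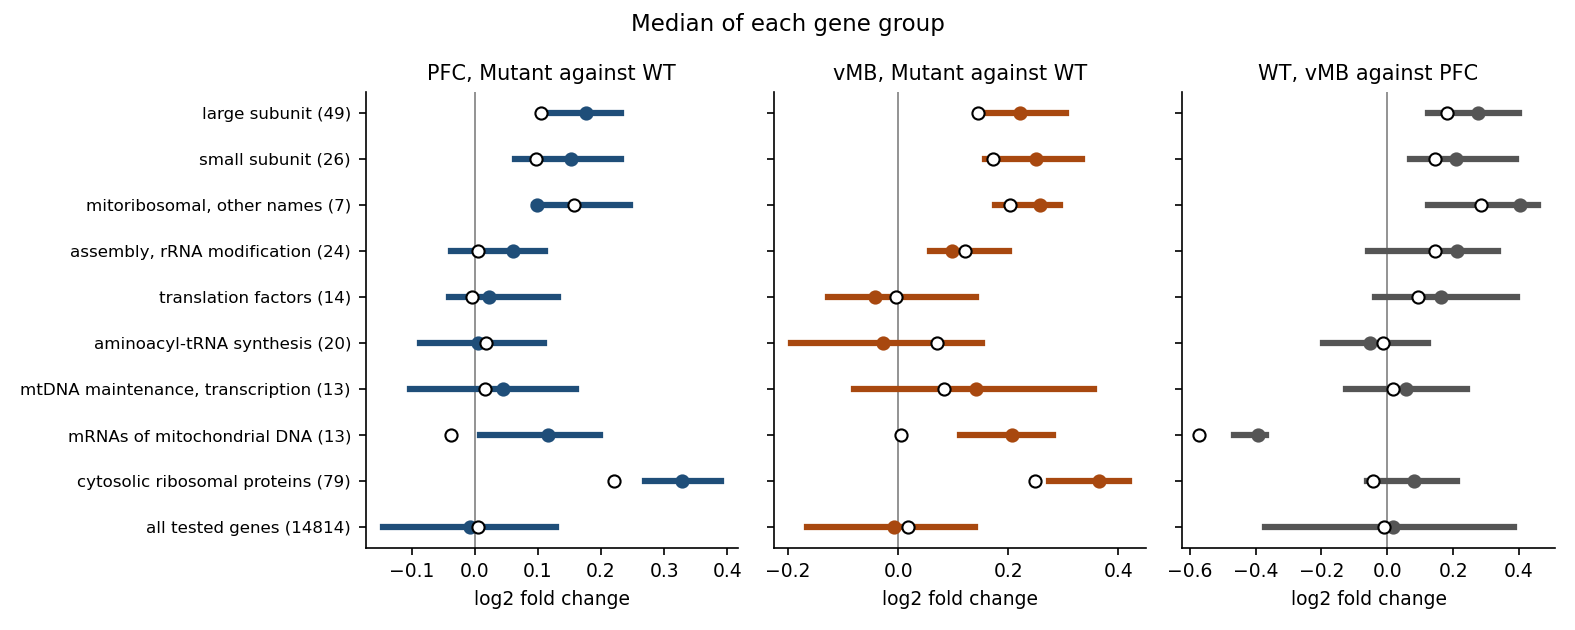
Median log2 fold change of each gene group (filled points, number of genes in parentheses) with the range between quartiles (bars) and the median after removal of the length trend (open points), for Mutant against WT in PFC and vMB and for WT vMB against WT PFC. Both subunits of the mitochondrial ribosome lie right of all tested genes in each panel, translation factors between -0.042 and 0.023 in the genotype panels, and mRNAs of mitochondrial DNA left of 0 between tissues.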

How the data were processed

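The deposited table holds one signal per gene and library: read counts that the authors divided by DESeq2 size factors (DESeq2 version not given), after Cutadapt 1.8.3, TopHat 2.0.10 and HTSeq-count 0.6.1p1 on poly-A, single-end reads. The study's methods name a human assembly, whereas the identifiers are of mouse genes, so the mouse build behind the values is not known. Whole reads could not be recovered (at most 70.1% of low values lay within 0.05 of a whole step), so no count test was run. The authors' 13 columns of comparisons (p, adjusted p, fold change and pass marks) were not used.

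Groups were taken from the sample labels. log2(value + 1) of the 14814 genes with a mean of at least 10 was fitted in limma 3.58.1 (R 4.3.3) with 4 groups over all libraries, a trended prior variance and two-sided tests, with Benjamini-Hochberg adjustment. Fold changes on this scale understate those of low genes. Exact permutation tests enumerated all 70 splits of 8 libraries. Python 3.11.15 was used elsewhere. The script was tested on simulated data. For the length alternative, a loess of each library's deviations on summed exon length (span 0.3) was subtracted. Exons of 31 members overlap another gene (27 on the opposite strand). The members named were those called, the extremes of each comparison and of level, and the smallest interaction p. Those named outside this rule (Mrpl2, Mrpl10, Mrpl11, Mrpl13, Mrpl30, Mrpl51, Mrps9, Mrps11, Mrps34, Mrps36 and members with 1 library far from the others) were chosen after their values were seen. Mrps18a was named for its subunit only. The members and lists were chosen with earlier results of these data known. The alternatives are given in the closing section.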

Additional observations from a re-analysis of the deposited data

Results flagged for a closer look

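Each group of 4 libraries was examined for a library far from the other 3 (a gap to its neighbour that, as a share of the group's range, was over Dixon's critical value at 95%), for every member and for the mean level of the members, 308 groups in all. Chance alone flags about 1 in 20 such groups, and 13 (4.22%) were found. Single libraries stood high for Mrpl35 in vMB WT 1 (280 beside 246.5 to 248 in the others), Mrpl22 in vMB WT 1 (158), Mrpl9 in vMB WT 3 (335), Mrps11 in vMB WT 2 (216), Mrpl15 and Mrpl40 in vMB Mutant 2 (369 and 282), Mrpl1 in vMB Mutant 4 (159), Mrpl17 in PFC Mutant 3 (214) and Mrps15 in PFC Mutant 2 (289). Single libraries stood low for Mrpl3 in PFC WT 2 (400), Mrpl32 in PFC WT 3 (91.5), Mrpl41 in PFC Mutant 2 (369) and Mrpl46 in vMB WT 2 (189). No library held more than 2 of the 13.

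Mrpl23-ps1, left out by the rule as a pseudogene, carried a mean of 201.055 normalised reads over the 16 libraries, above 21.2 for Mrpl23 itself. Its values were 179, 182, 181 and 142 in PFC WT, 256.5, 242, 199 and 181 in PFC Mutant, 194, 193, 192 and 147 in vMB WT and 242, 234, 211 and 242 in vMB Mutant. The vMB groups did not overlap. The log2 fold change was 0.35 ± 0.13 in PFC and 0.36 ± 0.13 in vMB (limma adjusted p = 0.163 and 0.0922), close to the higher members, whereas Mrpl23 had 0.17 ± 0.34 and -0.10 ± 0.34.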

How the results depend on the processing

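The median log2 fold change of the members kept its sign in all 5 comparisons under every alternative run (other pseudocounts, filters, scalings, subsets of libraries, no variance trend, blocks, the length trend and each library left out). No named gene past its threshold reversed, and over the single genes and alternatives 1002 values kept their side of the threshold, 33 lost it and 15 gained it.

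The number called was more mobile. Shares of all genes called are given above for the main fit, the length trend removed and no fold minimum. They are not given for the other settings of this section, so those counts are no result about the members. With the length trend removed, the medians were 0.097 in PFC, 0.162 in vMB, 0.121 in the average and 0.164 between tissues, with 1 member called in the average and 11 between tissues. Upper quartile rescaling gave 1 in PFC, 8 in vMB and a tissue median of 0.29, pseudocount 5 gave 1 in the average, and fitting the vMB libraries alone gave 4. Without a fold minimum the counts were 1, 10, 27 and 39 (PFC, vMB, average, tissues), and with a fold of at least 1.5 they were 0 in vMB, 0 in the average and 2 between tissues. With vMB Mutant 1 and 2 left out together, an alternative chosen after seeing the data, 1 was called in vMB. Leaving out 1 library at a time gave 0 to 1 in PFC, 0 to 10 in vMB, 1 to 3 in the average and 18 to 28 between tissues.

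Replicate numbers were not taken to pair the libraries, since same-number correlations of deviations ran from -0.088 to 0.087. With the title code as a correlated block, the counts called were as in the main fit. With the replicate block, 4 members were called in vMB. With replicate block and length trend removed together, 1 was called in vMB, 1 in the average and 11 between tissues, with the medians as above (0.097, 0.162, 0.121 and 0.164). The cause of these shifts was not tested. The 4 libraries per group and the roughly estimated 7.74 M to 11.3 M reads assigned to genes per library limit what single members can show.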
